A study of Mus musculus with 3 samples.

Results

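Genes of the cytosolic ribosomal proteins were examined on 3 exon arrays hybridised with RNA from GFP-positive bone marrow cells of C57BL/6 mice, in which the nestin promoter drives GFP. A gene was a member when its symbol fitted the naming pattern of ribosomal proteins of the large subunit (Rpl) or small subunit (Rps, Rpsa and Fau) and at least 4 probesets carried that symbol alone. The pattern leaves out the ribosomal S6 kinases. This gave 47 members among the 18865 genes measured in this way, 30 of the large subunit and 17 of the small subunit. The 3 arrays form a single group of freshly isolated cells sorted by flow cytometry, and no second condition was compared. All 3 samples carry the same reporter, and the labels give neither the age of the mice nor whether the samples came from separate animals, so any p-value reflects the spread among these 3 samples alone, and part or all of that may be technical. RNA was amplified from the sorted cells, converted to sense strand and labelled with biotin before hybridisation, and how evenly the amplification kept short mRNAs was not tested. The cells were defined by reporter fluorescence, so the sample holds whatever marrow cells had GFP.

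The cytosolic ribosome translates nuclear-encoded messages in every cell. Its large subunit forms peptide bonds and guides the growing chain out through a tunnel, while its small subunit binds the mRNA and reads the codons. The proteins are made in matched amounts, and their mRNAs typically begin with a cytosine followed by a stretch of pyrimidines, the terminal oligopyrimidine tract, through which the mTOR pathway controls their translation. Loss of 1 copy of several of these genes causes Diamond-Blackfan anaemia, a failure of red cell production in the marrow.

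RefSeq lists 84 protein-coding mouse genes that fit the pattern. Of the 47 members, 46 were among them, and the other one, Rps4l, is a transcribed pseudogene there. A further 20 genes had 1 to 3 probesets with a single symbol. Rpl38 was covered only by probesets with several symbols, and 17 genes were not analysed here. The members had 471 probesets in all, a median of 9 per gene with a range from 4 to 26, where the median over all genes was 13. Gene values are medians over a gene's probesets, on the log2 scale, for each array. Ribosomal protein genes have many processed pseudogenes, so signal from near-identical copies cannot be told apart from that of the gene.

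The arrays agreed closely, with Pearson's r between 0.901 and 0.919 across all 1256831 probesets, which are not independent replicates. These include 20744 probesets at exactly 0 on all 3 arrays, which can raise r. Perivascular stromal markers were above background in 10 of 10 cases, with Cxcl12 at 11.77, 11.89 and 11.61 on arrays 1, 2 and 3. Of 8 pan-leukocyte markers Lcp2, Rac2 and Hcls1 passed (3 of 8), from Lcp2 at 8.47 ± 0.51 down to Vav1 at 4.43 ± 0.18, which did not pass (SD, n = 3 each). Endothelial markers passed in 8 of 9 cases, and all 9 were lowest on array 2, where their median was 6.16, while it was 7.77 on array 1 and 8.35 on array 3. Neutrophil markers passed in 5 of 5 cases, with medians of 7.57, 7.85 and 8.24 on arrays 1, 2 and 3. Erythroid markers passed in 2 of 5 measured cases, Hbb-b1 (10.49, 8.33 and 10.56) and Epor (6.55, 6.04 and 5.99). Over all genes 50.6% passed the same background, which is defined below. No marker had a value of 0. In such bulk samples, fewer cells of a type and less RNA per cell cannot be told apart.

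The sequence feature for which this family is known was more frequent near start sites of the members than of all genes. Most members with an annotated start had no match. The RefSeq table of assembly GRCm38.p6 held 39 of the 47 members. A cytosine followed by at least 4 pyrimidines (C or T, on the sense strand of the gene) lay exactly at an annotated start site in 7 of these genes (17.9%), and in 3.01% of all 27025 genes in the table. Within 5 bases of a start the counts were 18 of 39 (46.2%), and 21.2% of all genes. Annotated starts can lie some bases away from the true one, and a missing match says only that these letters are not at that place. Selected starts are printed 5′ to 3′, from 30 bases upstream to 25 bases downstream, with a tract that begins within 5 bases of the start in capitals. Rps18 and Rps10 are shown as genes of high signal with a tract, Rpl41 as one of high signal without, Rpl15 for its long tract and its difference between arrays, Rps15a for a tract exactly at its start, and Rpl22l1 and both starts of Rpl3l because these genes were not called above background. Rps19, also not called, had 3 annotated starts, none with a tract within 5 bases, and is not printed. The choice was made after values were seen, so the printed starts do not reflect the share of members with a tract.
Rps18, chr17:33955641-33955695, minus strand: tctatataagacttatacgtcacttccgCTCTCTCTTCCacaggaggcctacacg
Rps10, chr17:27635220-27635274, minus strand: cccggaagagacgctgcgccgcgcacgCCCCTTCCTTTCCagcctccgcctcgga
Rpl41, chr10:128549144-128549198, minus strand: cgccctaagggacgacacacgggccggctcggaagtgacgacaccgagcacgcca
Rpl15, chr14:18270962-18271016, minus strand: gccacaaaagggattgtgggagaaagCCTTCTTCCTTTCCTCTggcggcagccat
Rps15a, chr7:118116123-118116177, minus strand: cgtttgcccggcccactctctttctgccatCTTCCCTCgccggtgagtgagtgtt
Rpl22l1, chr3:28805478-28805532, plus strand: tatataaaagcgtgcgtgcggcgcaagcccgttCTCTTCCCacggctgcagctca
Rpl3l, chr17:24727796-24727850, plus strand: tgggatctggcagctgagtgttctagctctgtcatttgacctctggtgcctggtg
Rpl3l, chr17:24732655-24732709, plus strand: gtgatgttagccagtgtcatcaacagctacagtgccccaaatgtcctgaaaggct

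The tract ran over 11 bases in Rps18, 13 in Rps10 and 17 in Rpl15, and none began within 5 bases of the start of Rpl41 or of either start of Rpl3l, a muscle paralog. Members with a tract near a start had a median level of 8.68 on the log2 scale (18 genes, 4 or more probesets each), and members without one had 9.05 (21 genes). The ranges overlapped almost fully, with 5.59 to 12.03 for members with a tract and 4.55 to 11.46 for those without.

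Ribosomal protein genes were detected at high signal in these cells. The background was set on each array as the 95th percentile of 355 olfactory, vomeronasal and bitter taste receptor genes, which marrow cells should lack, and lay at 5.40, 5.66 and 5.64 on arrays 1, 2 and 3. By limma (one-sided, p adjusted over all genes after Benjamini and Hochberg), 44 of the 47 members were above this background, compared with 50.6% of all genes. The counts were 28 of 30 for the large subunit and 16 of 17 for the small subunit. The median over the members was 9.38, 9.21 and 9.01 on arrays 1, 2 and 3, whereas the median over all genes was 6.07, 6.05 and 6.07. On every array 36 members (21 large, 15 small) lay above the 75th percentile of all genes, as did 18.9% of all genes. Probe affinity contributes to these levels, so they do not rank transcripts.

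**Figure D1:**
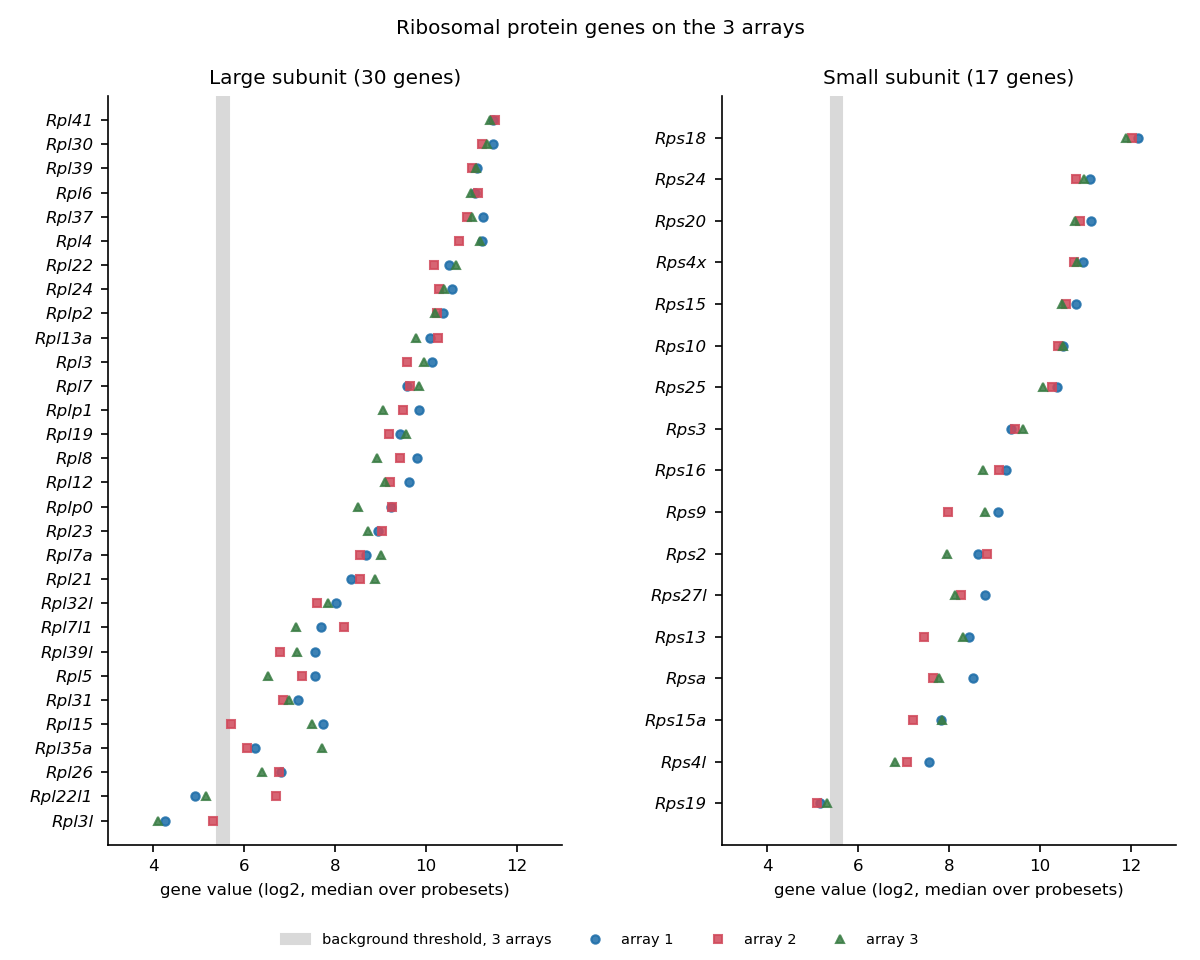
Gene values (log2, median over probesets) of the 30 large subunit and 17 small subunit genes on arrays 1, 2 and 3, each gene a row of 3 points, sorted by mean, with the span of the 3 thresholds as a grey band. The values span 4.09 to 12.16, and Rpl3l, Rpl22l1 and Rps19 are the genes in or left of the band on at least 2 arrays.

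Among large subunit genes, the 5 with the highest mean were Rpl41, Rpl30, Rpl39, Rpl6 and Rpl37. Rpl41, which encodes the smallest ribosomal protein, had 11.47, 11.52 and 11.40 on arrays 1, 2 and 3. Rpl30 had 11.48, 11.24 and 11.34. Rpl39, whose protein lines the exit tunnel, had 11.11, 11.01 and 11.10. These genes varied little between arrays, and none of their values approached the threshold. Rpl6 had 11.08, 11.14 and 10.98, and Rpl37 had 11.25, 10.90 and 11.02. The adjusted p of limma was 2.67e-07 for Rpl41, Rpl30, Rpl39 and Rpl6, and 2.69e-07 for Rpl37.

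At the lower end of the large subunit, Rpl26 and Rpl35a were called with margins near 1 on the log2 scale. Rpl26, near the tunnel exit, had 6.81, 6.77 and 6.38 on arrays 1, 2 and 3 (mean margin 1.09, adjusted p = 9.63e-04, limma). Rpl35a, a Diamond-Blackfan anaemia gene, had 6.23, 6.06 and 7.70 (adjusted p = 0.00803, limma). Its call was lost when the upper quartile of probesets stood for each gene (adjusted p = 0.0976, limma). It was also lost when genes with 1 to 3 probesets entered the fit (adjusted p = 0.186, limma). In both settings the threshold was set anew from the receptor genes, which in the latter included those with 1 to 3 probesets. Rpl15, another Diamond-Blackfan anaemia gene, had 7.74, 5.70 and 7.49, so that its value on array 2 was barely above the threshold there. Rpl15 was called (adjusted p = 0.00799, limma), but not without array 1 (adjusted p = 0.109, limma) and not with genes of 1 to 3 probesets in the fit (adjusted p = 0.111, limma).

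In the small subunit, Rps18, Rps24, Rps20, Rps4x and Rps15 had the highest means. Rps18 had 12.16, 12.04 and 11.90 on arrays 1, 2 and 3, all above every other member. Rps24, mutated in some cases of Diamond-Blackfan anaemia, had 11.11, 10.81 and 10.98. Rps20 had 11.14, 10.88 and 10.78. All values of these 3 genes exceeded the threshold by over 5 on the log2 scale. The X-linked Rps4x had 10.96, 10.75 and 10.82, and Rps15, close to the decoding site, had 10.80, 10.57 and 10.49. All 5 were far above the threshold on each array, with adjusted p between 2.67e-07 and 3.12e-07 by limma. Rps19, Rps4l, Rps15a, Rpsa and Rps13 had the lowest means of the subunit, and all but Rps19 were called. Rps15a had 7.84, 7.21 and 7.86, and Rps13 had 8.45, 7.46 and 8.32, both lowest on array 2.

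Rps19, Rpl22l1 and Rpl3l were the members not called above background, and they differed at the level of single probesets. Rps19, the gene most often mutated in Diamond-Blackfan anaemia, had 5.17, 5.10 and 5.31 on arrays 1, 2 and 3 (adjusted p = 1.0, limma). Its 10 probesets nevertheless included one with 11.41, 11.41 and 11.38. Of the 10, 5 lay above the threshold on all arrays, although that threshold was set on gene values. The other 5 reached down to a probeset with 1.89, 2.24 and 2.13. Among probesets of all genes 44.8% had a mean under 6, so the count of 5 does not set Rps19 apart. With probesets this far apart, the median does not tell whether the mRNA was present or lacking. Against the median of the receptor genes in place of their 95th percentile all 3 were called. The adjusted p by limma was 2.59e-05 for Rps19, 5.98e-04 for Rpl22l1 and 0.00232 for Rpl3l. That median was only 3.40, 3.46 and 3.33 on arrays 1, 2 and 3, and the lower quartile of all genes was 5.09. Most genes lie above it, so these calls say little about the 3 genes. With the mean or the upper quartile over its probesets Rps19 was not called.

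Rpl22l1 encodes a paralog of Rpl22, a protein that mouse T cell development needs. It had 4.91, 6.70 and 5.15 on arrays 1, 2 and 3 (adjusted p = 0.749, limma). These are the values of the middle one of its 11 probesets. Of the others, 5 were dimmer, and the 2 brightest had 11.75, 11.65 and 11.62, and 11.93, 11.74 and 11.79. With the mean of its probesets as gene value, Rpl22l1 was called (adjusted p = 1.11e-05, limma), as it was with the upper quartile (adjusted p = 9.04e-05, limma). Rpl22 itself had 10.50, 10.17 and 10.66.

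Rpl3l, the paralog of Rpl3 known from heart and skeletal muscle, stood at 4.26, 5.30 and 4.09 on arrays 1, 2 and 3 (adjusted p = 1.0, limma). No bright probeset stood behind it. Its brightest had 6.88, 7.37 and 6.95, the lowest such value among the 47 members. Of its 10 probesets 2 were above the threshold on all arrays, where 44.8% of the probesets of all genes had a mean under 6. Rpl3, which contributes to the peptidyl transferase centre, had 10.13, 9.59 and 9.96, and all of its 24 probesets were above the threshold on all arrays.

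**Figure D2:**
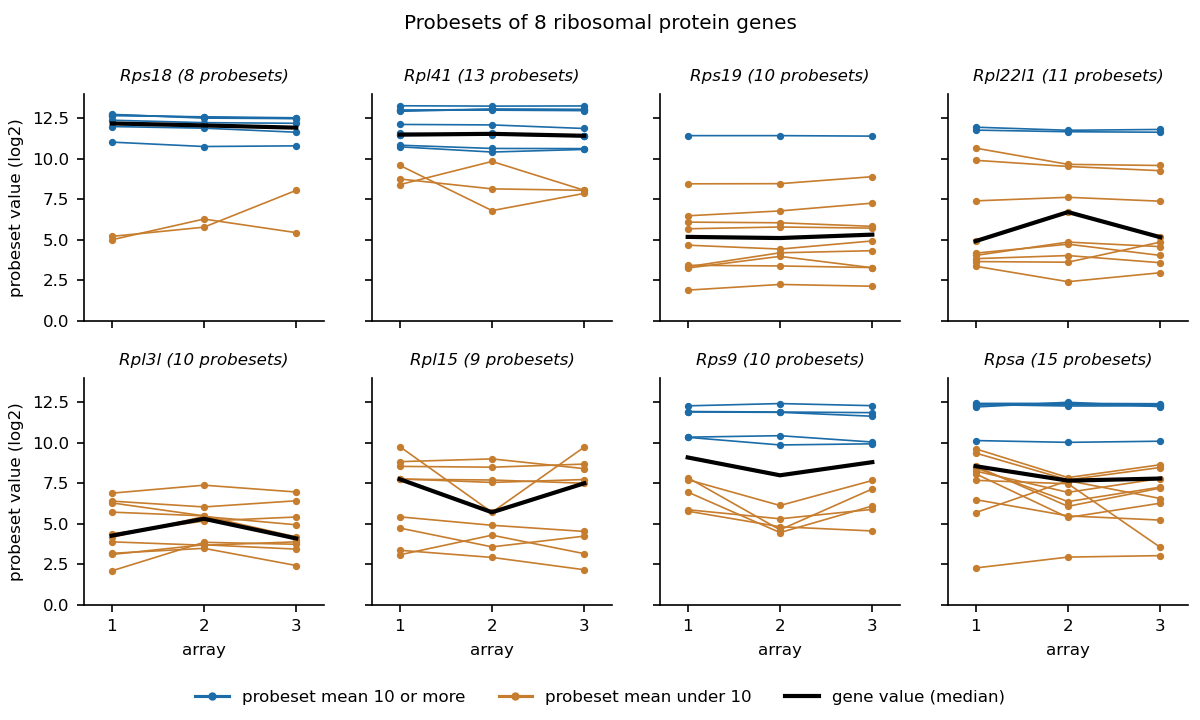
Probeset values (log2) on arrays 1, 2 and 3 for Rps18, Rpl41, Rps19, Rpl22l1, Rpl3l, Rpl15, Rps9 and Rpsa, 1 thin line per probeset, blue where the mean over arrays is 10 or more and orange where it is lower, with the gene value in black. Blue lines run flat in every panel that has them, the single blue line of Rps19 lies at 11.4, and the panels of Rpl3l and Rpl15 have none.

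Of the 14 listed paralogs of ribosomal proteins 6 were measured, and 4 of them were called. That compares with 50.6% of all genes and 40 of 41 among the members outside that list. The highest of the 6 was Rps27l, a paralog of Rps27 that p53 induces, with 8.80, 8.28 and 8.14 on arrays 1, 2 and 3. Rpl7l1, related to Rpl7, had 7.68, 8.19 and 7.13. Rpl39l, known mainly from testis, had 7.56, 6.79 and 7.16, and the pseudogene Rps4l had 7.56, 7.07 and 6.82. These 4 levels were above the threshold on every array. At the stricter 99th percentile of the receptor genes Rpl39l (adjusted p = 0.208, limma) and Rps4l (adjusted p = 0.171, limma) lost their calls, as did Rpl5, Rpl15, Rpl26, Rpl31 and Rpl35a (adjusted p from 0.307 to 1.0, limma). Rpl32l, which the annotation carries under an older name, had 8.01, 7.60 and 7.84, and its share of signal from Rpl32 was not tested.

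By role, all measured proteins of the stalk that recruits translation factors were called, as were 44 of all 47 members. Rplp0 had 9.22, 9.25 and 8.51 on arrays 1, 2 and 3, Rplp1 had 9.84, 9.50 and 9.05, and Rplp2 had 10.37, 10.24 and 10.19. Rpl12, at the base of the stalk, had 9.63, 9.21 and 9.09. All 4 stalk genes were lowest on array 3, as were 21 of the 47 members and 36.9% of all genes. The median range of the 4 genes was 0.64 on the log2 scale, against 0.51 for all genes.

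Rpl5, which together with Rpl11 binds a small ribosomal RNA and can inhibit the p53 ligase Mdm2, had 7.55, 7.26 and 6.52 on arrays 1, 2 and 3 (adjusted p = 4.95e-04, limma). Near the peptidyl transferase centre 3 of 3 measured genes were called, with Rpl4 highest (11.04 ± 0.28) and Rpl8 lowest (9.37 ± 0.45; SD, n = 3 each). At the polypeptide exit 6 of 6 were called, from Rpl26 (6.65 ± 0.24) to Rpl39 (11.08 ± 0.05). Around mRNA entry and decoding 3 of 3 were called, from Rps2 (8.48 ± 0.46) to Rps15. Rpsa, at the mRNA exit and also known as a precursor of a laminin receptor, had 8.54, 7.65 and 7.78. Of 9 measured Diamond-Blackfan anaemia genes 8 were called, the exception being Rps19. For comparison, 44 of all 47 members and 50.6% of all genes were called, so these counts do not set any role apart. The measured members of the list of ubiquitin and ubiquitin-like fusion genes numbered 0, and so did those of the ribosomal proteins outside the naming pattern.

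Large subunit genes were slightly higher than small subunit genes in median, but the sign of the difference changed with the summary used. The median of the large subunit genes was 9.50, 9.23 and 9.03 on arrays 1, 2 and 3, and that of the small subunit genes was 9.27, 9.11 and 8.79. The large minus small difference was thus 0.23, 0.12 and 0.24, a mean of 0.19 ± 0.07 (SD, n = 3) on the log2 scale. Within each subunit the genes spread far more widely, with means from 4.55 to 11.46 in the large subunit and from 5.19 to 12.03 in the small one. Without the paralogs the difference was 0.33, 0.01 and -0.31. It was -0.26 when the mean over genes replaced the median and -0.02 with the upper quartile over probesets. No test was made, since different genes have different probes.

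With the median over probesets as gene value, members varied between arrays about as much as other genes. Between the highest and the lowest array, members had a median range of 0.50 on the log2 scale (0.50 for the large and 0.36 for the small subunit), and all genes one of 0.51. A range of 1 or more occurred in 7 members (14.9%), 6 large and 1 small, and in 15.8% of all genes. The 7 were Rpl15, with a range of 2.04, Rpl22l1 (1.79), Rpl35a (1.64), Rpl3l (1.21), Rps9 (1.1), Rpl7l1 (1.07) and Rpl5 (1.03). The smallest ranges were those of Rpl39 (0.10), Rpl41 (0.12) and Rps10 (0.12). With the mean over probesets the median range was 0.31 for members and 0.36 for all genes, and 0 members ranged over 1 or more, compared with 6.95% of all genes. With the upper quartile the median range was 0.33 for members and 0.50 for all genes, and 2 members ranged over 1 or more, compared with 15.5% of all genes. The likeness to other genes thus held for the median over probesets and not for the upper quartile. The count was 2 without array 2, 4 without array 3 and 5 without array 1, and 2 arrays can only give the same range or a smaller one.

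The spread lay mainly in dim probesets. Of the members' probesets 201 in 39 genes had a mean of 10 or more, and their median range was 0.22, with 1 of 201 ranging over 1 or more. The other 270 probesets had a median range of 0.68, and 89 of them (33.0%) ranged over 1 or more. Bright probesets were also steadier among all genes. Between 10 and 12 on the log2 scale the median range was 0.25 for 158 probesets of members and 0.48 for 15320 probesets of all genes, and at 12 or more it was 0.14 for 43 probesets of members and 0.19 for 1222 of all genes. Below 6 the order was the other way, with 1.1 for 60 probesets of members and 0.84 for all genes. These are descriptions without a test, because probesets of a gene share their transcript and their arrays.

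**Figure D3:**
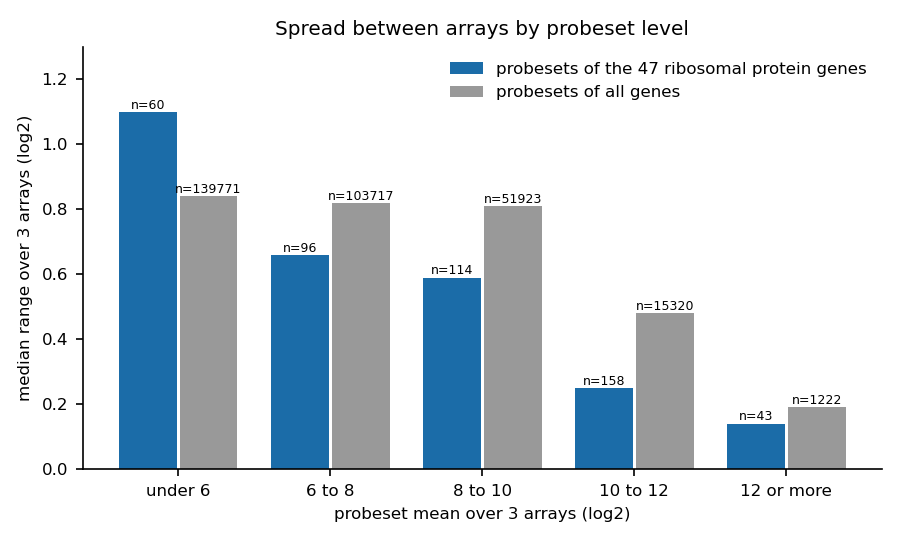
Median range over the 3 arrays (log2) of probesets grouped by their mean over arrays, with bars for probesets of the 47 ribosomal protein genes (blue) and for those of all 18865 genes, members included (grey), and the number of probesets above each bar. The blue bars fall to 0.25 between 10 and 12 and 0.14 at 12 or more, and the grey ones are higher than the blue in every group except the one under 6.

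Single probesets of Rpsa, Rps9, Rpl15 and Rps2 show where the differences between arrays lay. In Rpsa 5 probesets had a mean of 10 or more, with a median of 12.32, 12.33 and 12.26 on arrays 1, 2 and 3, and none of the 5 ranged over more than 0.29. The other 10 had a median of 8.15, 6.64 and 6.87, lower on arrays 2 and 3. In Rps9 the 5 bright probesets had a median of 11.88, 11.86 and 11.62 and the 5 dim ones 6.95, 4.81 and 6.09, so the gene value of 9.08, 7.98 and 8.79 lay between both kinds. In Rpl15 the median on array 2 was the value of a probeset with 9.75, 5.70 and 9.72, while its 2 brightest had 8.53, 8.48 and 8.67, and 8.82, 8.99 and 8.39. In Rps2 a pair of probesets went the other way, with 5.50, 10.47 and 4.49, and 6.14, 10.34 and 5.05, although the gene value was 8.65, 8.84 and 7.96. Of all 471 probesets of members 4 (0.849%) ranged over 4 or more, compared with 1.38% of the probesets of all genes. They were this pair, the probeset of Rpl15, and one of Rpsa with 7.67, 7.46 and 3.54.

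Taking only the brightest probeset of each gene, the members differed little between arrays, although their levels ran from 7.07 in Rpl3l to 13.24 in Rpl41. Its mean over arrays was 10 or more in 39 of 47 members, compared with 29.5% of all genes treated in the same way. The median over the 47 brightest probesets was 11.80, 11.82 and 11.79 on arrays 1, 2 and 3. Their median range was 0.18, whereas that of the brightest probesets of all genes, which were dimmer with a median level of 8.96, was 0.54. The brightest probeset was picked by its value, so these figures describe the upper end of the signal only.

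More members were highest on array 1 than on the other arrays. It was the highest array for 29 of 47 members (16 of 30 large, 13 of 17 small), compared with 37.5% of all genes, and the lowest for 4 of 47, compared with 30.2%. Array 2 was the lowest for 22 of 47 members, compared with 32.9% of all genes, and array 3 for 21 of 47, compared with 36.9%. Among the 9 measured Diamond-Blackfan anaemia genes, array 2 was the lowest for 7 and array 3 for 2. The differences between arrays were small in size for the members. Their median deviation from their own means was 0.15, -0.07 and -0.04 on arrays 1, 2 and 3, and that of all genes 0.03, 0.01 and -0.04. Among other ways of summarising the same 47 genes or scaling the arrays, the count ranged from 25 with the mean over probesets to 32 with the upper quartile, but fell to 18 of 47 (38.3%) after quantile normalisation of the gene values, where 33.1% of all genes were highest on array 1. Under that scaling array 3 was the highest for 18 members as well, so array 1 no longer stood out. Endothelial markers were lowest on array 2 and highest in median on array 3, neutrophil markers were highest in median on array 3 (Mpo had 6.59, 8.28 and 9.69), and the part of either in this pattern was not tested. Genes on an array are not independent replicates, and each array is a single sample.

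**Figure D4:**
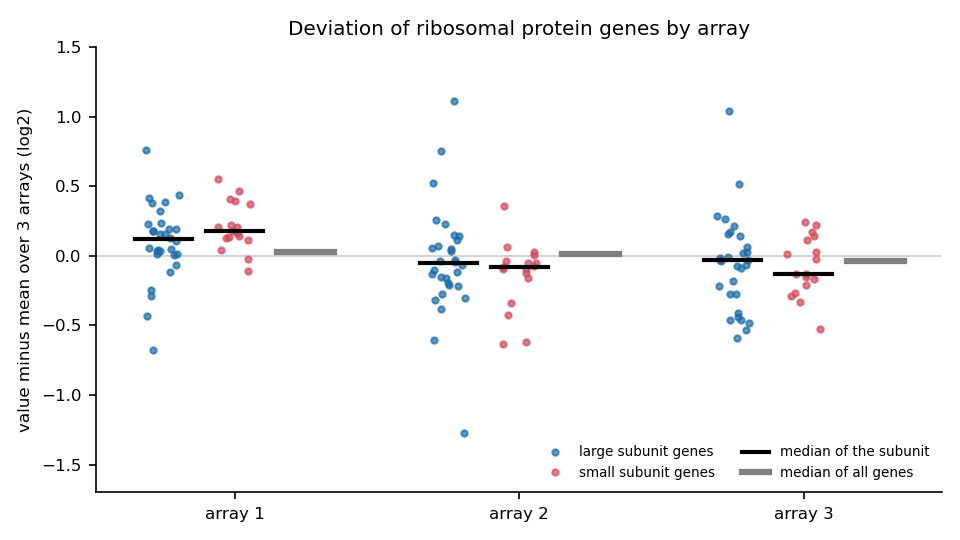
Deviation of each ribosomal protein gene from its own mean over the 3 arrays (log2) by array, for the large subunit (blue) and small subunit (red), with black bars for the median of a subunit and grey bars for that of all 18865 genes. Medians on array 1 are 0.12 for the large and 0.18 for the small subunit, above the 0.03 of all genes, and Rpl15 on array 2 is the lowest point.

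Genes with 1 to 3 probesets lay outside the selection and outside the main fit, and their values rest on fewer probes. Of these 20 genes (15 large, 5 small) 16 had a value above the threshold on all 3 arrays. Among the 18865 genes with at least 4 probesets, 10374 did so. Just below the minimum, with 3 probesets, were Rps14 (12.08, 12.13 and 11.90 on arrays 1, 2 and 3), Rps21 (11.58, 11.17 and 10.84), Rpl27a (10.17, 10.11 and 10.32), Rpl29 (10.04, 9.52 and 9.34) and Rps27 (9.58, 9.08 and 9.0). Rps6, whose protein is the substrate of the S6 kinases, had 8.34, 7.96 and 7.87. Lower in that set were Rpl14 (6.94, 7.63 and 7.95), Rps7 (6.03, 6.82 and 6.27) and Rpl36a (6.11, 5.14 and 5.80), the last of which was under the threshold on array 2. Rpl10l, an intronless paralog of the X-linked Rpl10 that mouse spermatogenesis needs, was below the threshold on each array with 5.19, 4.83 and 4.67. Just above the minimum, with 4 probesets, were Rpl30 (mean 11.35), Rplp2 (10.27), Rpl7a (8.68, 8.55 and 9.01, mean 8.75), Rpl21 (8.34, 8.54 and 8.87, mean 8.59), Rps13 (8.08), Rpl32l (7.81), Rps4l (7.15), Rpl5 (7.11), Rpl35a (6.66) and Rpl26 (6.65).

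Other genes of translation were also called in most cases, against a call rate of 50.6% over all genes and a share of 18.9% above the 75th percentile on every array. Initiation factors and the poly(A)-binding protein gene passed in 35 of 35 cases, from Eif2b4 (6.05 ± 0.15, adjusted p = 0.0400, limma) to the helicase gene Eif4a2 (10.35 ± 0.11; SD, n = 3 each). Elongation and termination factors passed in 13 of 15 cases. Eef1a1, which brings aminoacyl-tRNA to the ribosome, was highest with 11.46, 11.41 and 11.39 on arrays 1, 2 and 3, and Eef2k, the kinase that inhibits elongation factor Eef2, was lowest with 4.97, 5.45 and 5.49. In the list of other genes with terminal oligopyrimidine mRNAs 16 of 16 were called and 15 lay above the 75th percentile on every array. Eif3f, an initiation factor gene, was lowest with 7.47 ± 0.49 (SD, n = 3). Some of these factors stand in more than 1 list.

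Genes that build ribosomes passed in 42 of 49 cases, with 19 above the 75th percentile on every array. Npm1, a nucleolar chaperone, was highest with 10.59, 10.78 and 10.53 on arrays 1, 2 and 3, and Polr1b, a subunit of RNA polymerase I, was lowest with 5.17, 4.91 and 4.94. Mitochondrial ribosomal proteins, which serve the separate ribosome of that organelle, passed in 67 of 75 cases with 27 above the 75th percentile, from Mrpl47 (4.34 ± 0.31) to Mrps6 (10.78 ± 0.29). Their median was 7.33, 7.29 and 7.03, below that of the cytosolic ribosomal proteins on each array, and 22 of 75 ranged over 1 or more, compared with 15.8% of all genes. Among ribosomal S6 kinases and inputs of the mTOR pathway 13 of 17 passed. Rheb, the GTPase that activates mTOR, was highest with 9.26, 9.38 and 9.13, and the kinase gene Rps6ka6 was lowest with 3.16, 3.04 and 3.20.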

How the data were processed

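The deposited log2 values, 1 per probeset, come from RMA in Affymetrix Expression Console 1.1, per the submitters' processing notes. Its settings are not given here. RMA normally sets all arrays to a common distribution, in which a shift of all genes cannot be seen. Of 1256831 probesets per array, 318760 had 1 gene symbol in the platform's annotation, and 4227 older symbols were updated through RefSeq (GRCm38.p6). Gene values were medians over probesets (minimum 4). The mean margin over the array threshold was tested with limma 3.58.1 in R 4.3.3 (intercept-only model, all 18865 genes, one-sided, Benjamini-Hochberg, adjusted p under 0.05). The test was tested on simulated data. Differences between arrays and subunits were described without a test. The number of arrays limits the precision. The members and lists were chosen with earlier results of these data known. Named were paralogs, stalk, Rpl5 and fusion genes, the 5 highest and lowest members of each subunit, members not called, the 5 largest and 3 smallest ranges, genes with 3 or 4 probesets, and the extremes of other lists. Other genes singled out were chosen after their values were seen. Protein sequences of paralogs were not used here.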

Additional observations from a re-analysis of the deposited data

How the results depend on the processing

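Counts above background varied with the threshold: large subunit genes gave 22 (99th percentile) to 30 (median threshold) of 30, and small subunit genes 15 to 17 of 17, with 27 to 28 and 16 when 1 array was left out. At the 99th percentile 7 members lost their calls. With at least 1 probeset per gene 36 of 45 large and 20 of 22 small subunit genes were called. With at least 8 probesets per gene, fewer genes entered, and 17 of 19 large and 10 of 11 small subunit genes were called. The share of all genes called under these other settings is not given here. The median threshold was 3.40, 3.46 and 3.33 on arrays 1, 2 and 3. It lay below the lower quartile of all genes (5.09), so counts at that threshold say little. The large minus small difference of 0.19 depended on the summary: it was 0.01 with the mean over probesets, 0.02 with symbols as annotated, 0.01 without the paralogs, -0.02 with the upper quartile, -0.15 with at least 1 probeset, -0.11 with at least 8, -0.26 with the mean over genes and -0.46 with the brightest probeset, an alternative chosen after seeing the data. The cause was not tested. It was 0.17 to 0.23 when 1 array was left out. The median range of 0.50 was 0.31 with the mean over probesets, 0.33 with the upper quartile, 0.18 for the brightest probesets and 0.25 to 0.32 over 2 arrays. The count of 7 members ranging over 1 or more was 0 with the mean over probesets, 2 with the upper quartile, 1 for the brightest probesets and 2 to 5 over 2 arrays. No paired analysis was possible because the 3 arrays form 1 group.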

Other observations

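Probesets with several symbols, left out of all gene values, also covered ribosomal protein genes. There were 85 of them for 13 genes, and 79 lay above the threshold on all 3 arrays. That threshold was set on gene values and not on single probesets, and the share of all probesets above it is not given here. Most pair a ribosomal protein symbol with provisional gene symbols, so their signal cannot be assigned to one of the genes. Rpl38, which mouse embryos need for the translation of Hox messages, was covered only in this way, with a median over 15 probesets of 11.22, 11.04 and 10.82 on arrays 1, 2 and 3. The 10 such probesets of Rps2 had a median of 11.94, 12.01 and 11.84, above the gene value of Rps2 from its single-symbol probesets. For Rpl12 the order was reversed, with 4.39, 5.36 and 4.97 over 5 shared probesets.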
